A study of Mus musculus with 6 samples.

Results

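Potassium channel genes were described as the 93 protein-coding genes, of 52550 genes in the count files, whose symbol begins with Kcn followed by letters and a number. They fell into 40 voltage-gated subunits, 15 inward rectifiers, 14 two-pore subunits, 8 calcium-activated subunits, with which the sodium-activated Slack and its relatives were placed, and 16 auxiliary subunits. The hippocampus had been taken from male mice of the strain given as C57BL / 6 in the labels and C57B6/J in the study's methods, aged 8 to 10 weeks by those methods, 24 h after surgery, with 3 sham mice (Sham1 to Sham3) and 3 mice with traumatic brain injury (TBI1 to TBI3) and 1 library per mouse. TBI was a moderate controlled cortical impact over the right parietal cortex, and sham mice had the same anaesthesia, scalp incision and craniotomy without the impact. The labels and methods name no transgene and no drug beyond the anaesthetics. By design both groups had the surgery and the impact was what differed. The methods describe exposing the contralateral hippocampus as well and do not state which side was sequenced. The comparison asks which channel transcripts differed in hippocampus after TBI, and a bulk measurement cannot tell fewer cells of a type from less RNA per cell.

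Potassium channels let K+ leave the cell and so set the resting potential, the shape of the action potential and the firing rate. Voltage-gated (Kv) subunits open on depolarisation, inward rectifiers (Kir) pass current best near rest, two-pore (K2P) subunits carry leak, and calcium-activated channels follow activity. Auxiliary subunits change the trafficking and gating of the pore-forming ones. In the hippocampus A-type and M-type currents limit dendritic and repetitive firing, and glial Kir channels take up the K+ that active or injured neurons release.

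Transcripts of potassium channels were abundant, and 82 of the 93 members passed the filter on low counts. The other 11 had few or no counts: Kcnj1, Kcna7, Kcnk18 and Kcne1 were listed at 0 in every library. Kcnj15 ranged from 0 to 28 counts, Kcnk7 from 4 to 13, and Kcnk16, Kcna10, Kcnk15, Kcnv2 and Kcnmb3 from 0 to at most 8. Library totals were 31630936 to 41771872 estimated counts. Levels are given as CPM, the usual depth-scaled count of a gene, on library sizes adjusted by the trimmed mean of M-values (TMM), and between genes as CPM per kb of exon.

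The libraries differed in markers of regions other than hippocampus before any channel was considered. The summed level of 9 striatal markers was 198 to 209 CPM in sham, 191 in TBI2, 272 in TBI3 and 4200 in TBI1, where 9 of 9 were highest. Of 6 cerebellar markers, listed after values had been seen, 6 were highest in TBI3, with a sum of 2068 CPM against 18.6 to 54.5 in sham and 34.5 to 53.3 in the other TBI libraries. Among them Gabra6 was at 0 in Sham1, Sham2 and TBI1. The choroid plexus sum, over 7 markers, was 53.1 to 2074 CPM in sham and 241 to 2350 in TBI: it was high in Sham1, Sham3 and TBI2 and low in the other 3 libraries, with Slc4a5 at 0 in Sham2. The 6 dentate gyrus markers, which define the granule cells of the hippocampus, summed to 223 to 359 CPM in sham. In TBI they summed to 77.3 to 240.4 CPM, lowest in TBI1, which was the lowest library for 4 of the 6. In TBI1 C1ql2 was at 2.45 CPM, against 39.6 to 86.0 in the other libraries, and Dsp at 1.10, against 14.5 to 54.15. Stxbp6 made up 46.4 CPM of the TBI1 sum. CA1 markers summed to 373 to 457 CPM in sham and 199 to 448 in TBI, and CA3 markers to 394 to 582 and 286 to 452. The CA1 sum of 448 CPM was that of TBI1, where its markers did not move together. In TBI1 Wfs1 was the highest of the 6 libraries, at 276 CPM, while Fibcd1, at 13.1, and Spink8, at 1.94, were the lowest. Oligodendrocyte markers summed to 2015 in Sham2 and to 5810 to 7091 in the other 5 libraries. Sums for sham and TBI were 4313 to 4537 and 3750 to 4104 CPM for neurons in general, 711 to 838 and 724 to 1344 for interneurons, and 178 to 213 and 151 to 209 for neocortex. The thalamic sum was 139, 62.1 and 372 CPM in the sham libraries and 48.0, 325 and 455 in the TBI libraries, in the order of their numbers. The other sums were 1786 to 2493 and 2048 to 3115 for astrocytes, and 197 to 396 and 353 to 400 for oligodendrocyte precursors. They were 282 to 330 and 283 to 528 for microglia, 105 to 129 and 112 to 131 for endothelium, 155 to 244 and 188 to 206 for mural cells, and 124 to 414 and 116 to 596 for red cells. Among the libraries apart from their group by these sums were TBI1 in striatal, dentate gyrus and thalamic markers, TBI3 in cerebellar, Sham2 in oligodendrocyte and choroid plexus, Sham3 in thalamic and TBI2 in choroid plexus markers. Where leaving out 1 library moved a printed fold change by over 1.5 times or turned it, the value without the library that moved it most is also given.

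**Figure D1:**
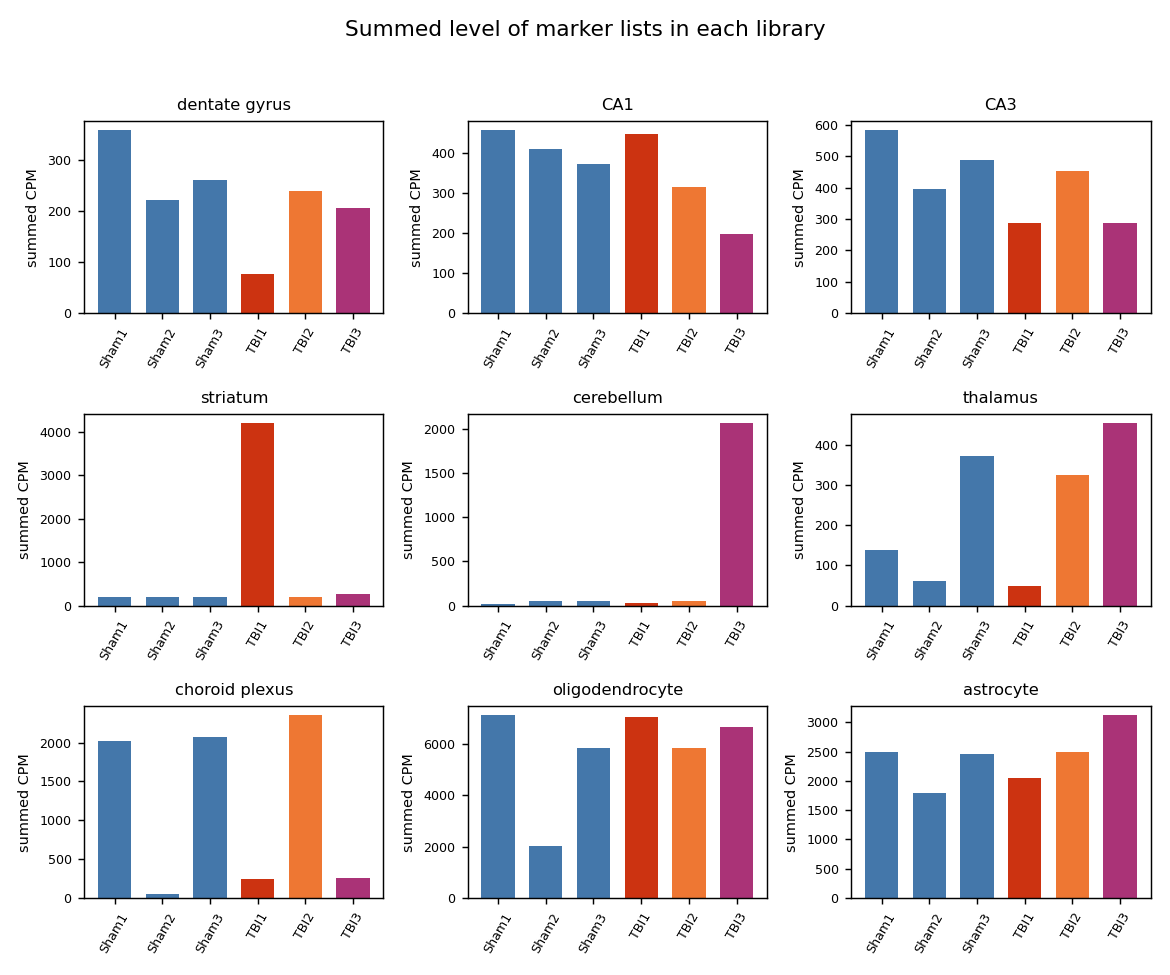
Summed CPM of 9 marker lists in each library (sham in blue, TBI1 red, TBI2 orange, TBI3 purple; 1 bar per library, linear axes from 0). Striatal markers reached 4200 CPM in TBI1 alone, cerebellar markers 2068 CPM in TBI3 alone, and choroid plexus markers were high in Sham1, Sham3 and TBI2.

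Per length, the leading transcript was an auxiliary one. Kcnab2, which encodes the Kvβ2 subunit of Kv1 channels (chromosome 4, 152390742 to 152477871, GRCm38, GENCODE vM21 annotation), had a mean of 130 CPM per kb over the 6 libraries. Kcnk1, the two-pore subunit TWIK1, followed with 57.9, and Kcnj10, the glial inward rectifier Kir4.1 that takes up extracellular K+, with 53.5. The KChIP genes Kcnip3 and Kcnip2, calcium-binding partners of the A-type Kv4 channels, had 48.1 and 30.3 CPM per kb, and Kcnj4, the strong inward rectifier Kir2.3, had 41.9. Among voltage-gated subunits the Kv3 genes Kcnc1 and Kcnc4, which allow fast repolarisation, had 23.6 and 21.3, and Kcna2, the axonal Kv1.2, had 21.0. The leaders of the calcium-activated group were lower. They were Kcnma1, the large-conductance BK pore, at 11.6, Kcnn2, the small-conductance SK2, at 4.73, and Kcnt1 at 4.46 CPM per kb. The median of all tested members was 6.13 CPM per kb, against 3.73 over all tested genes, and the lowest was Kcnn4, the intermediate-conductance channel, at 0.0719. The plot of levels per length by group shows the spread of each member over the 6 libraries.

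**Figure D2:**
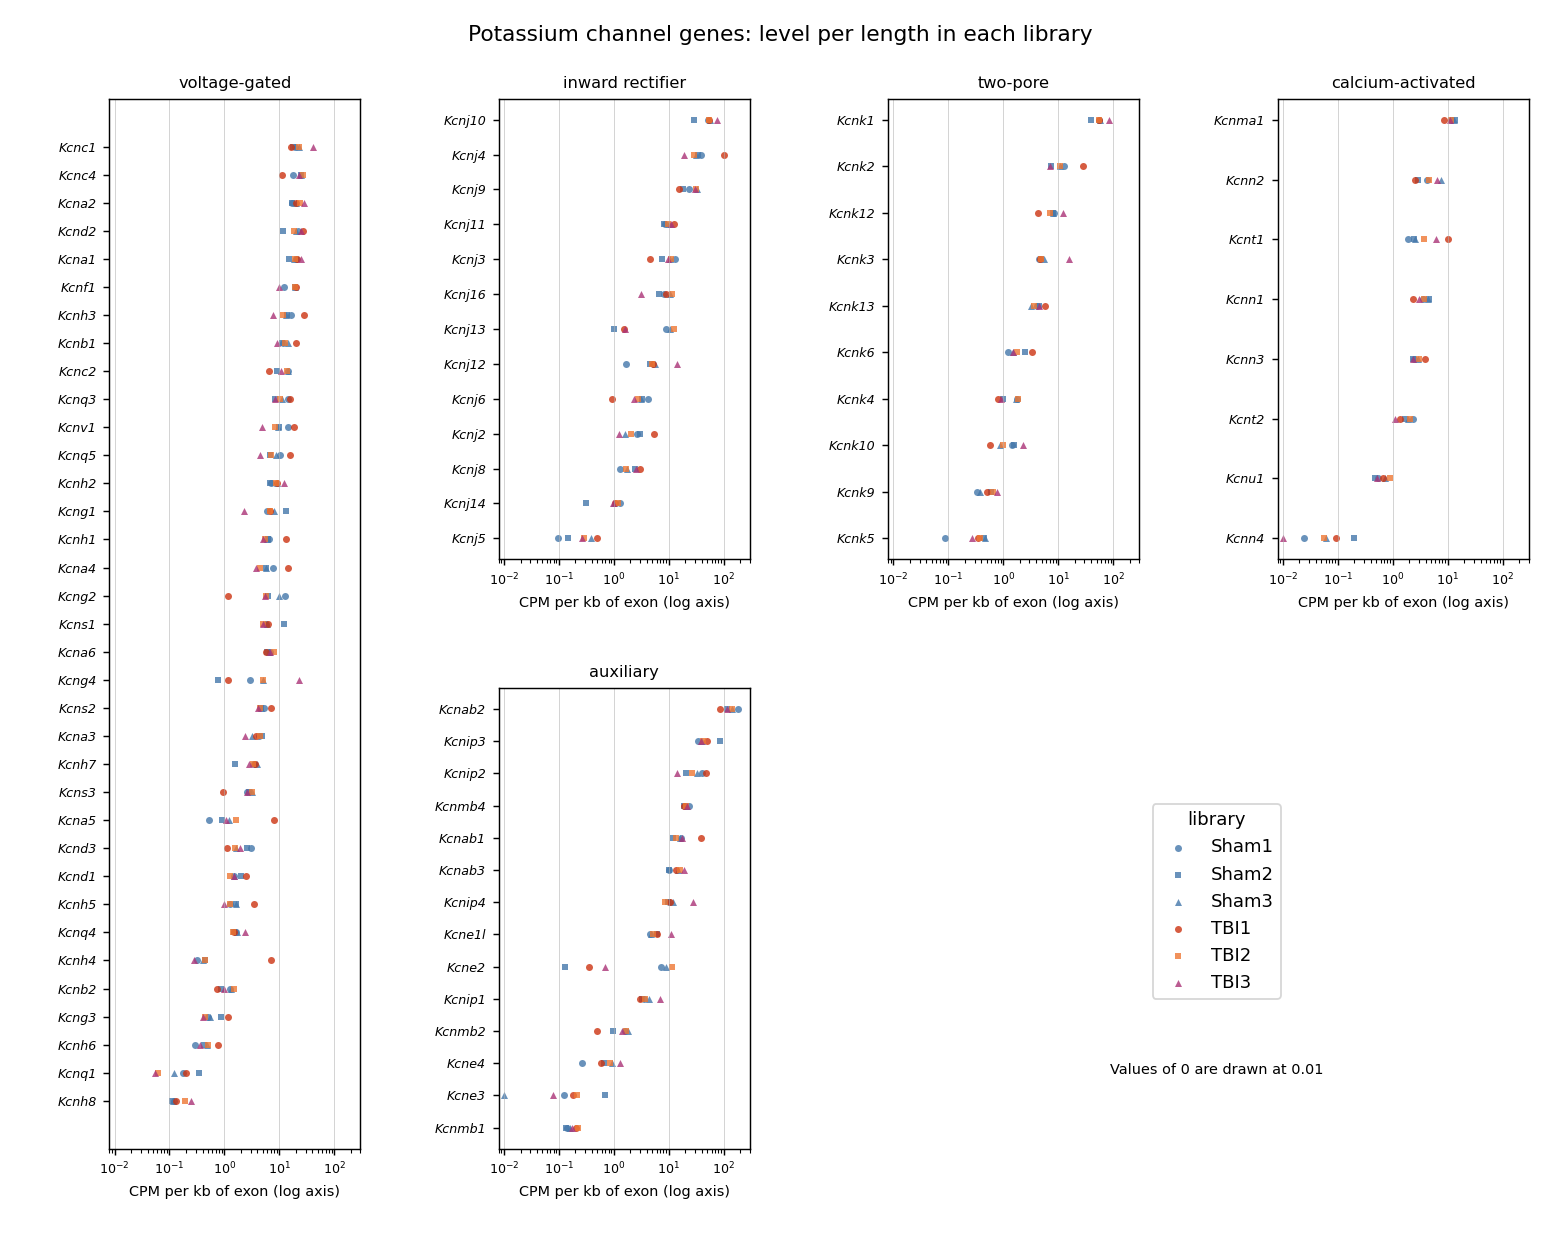
Level of 80 of the 82 tested members in each library, as CPM per kb of exon on a log axis, by group (sham in blue, TBI in red, orange and purple; 1 symbol per library, values of 0 drawn at 0.01). Kcnab2 leads at a mean of 130 CPM per kb. Kcnh4 and Kcna5 have 1 library, TBI1, far from the rest, while Kcne2 and Kcnj13 are split in both groups.

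All 93 members together reached 4629 ± 450 CPM in sham against 4968 ± 226 in TBI libraries (SD, n = 3 each), and the groups overlapped. By library it was 4906, 4109 and 4872 CPM in Sham1 to Sham3 and 5110, 4707 and 5088 CPM in TBI1 to TBI3, with the lowest in Sham2. The voltage-gated sum was 2006 ± 160 CPM in the sham group and 2264 ± 165 in the TBI group, the inward rectifier sum 614 ± 129 and 737 ± 35.7, and the two-pore sum 245 ± 29.2 and 319 ± 56.0 (SD, n = 3 each). The calcium-activated sum was 337 ± 32.7 and 333 ± 8.70 CPM, and the auxiliary sum 1428 ± 174 and 1316 ± 40.3 (SD, n = 3 each). Each of these 5 pairs of groups overlapped.

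No member was called in the comparison of TBI with sham. Calls needed an unadjusted p below 0.05, an adjusted p below 0.1 and a change of over 1.5-fold in either direction. On these terms edgeR's quasi-likelihood test called 0 of 18795 tested genes (0%) and 0 of the 82 tested members. At an unadjusted p under 0.05, 3 of 82 members passed, Kcnt1, Kcna2 and Kcna5, all higher in TBI. That is 3.66% of the members, against 4.29% of all tested genes, with 2.16% higher and 2.13% lower. The smallest adjusted p of any member in edgeR was 0.982. DESeq2 with its defaults called 46 of 28118 genes (0.164%), among them 1 member, Kcnt1, and had 6 of 88 members at an unadjusted p under 0.05 (6.82%, against 4.11% of all genes in that fit): Kcnt1, Kcna5, Kcna2, Kcnd3, Kcng2 and Kcnj6.

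Fitted values were higher in TBI for 49 members and lower for 33, so 59.8% were higher against 51.4% of all tested genes. The median log2 fold change of the members was 0.12, beside 0.0091 for all tested genes. By group, 24 of 37 voltage-gated subunits were higher (median log2 fold change 0.09), 9 of 13 inward rectifiers (0.30), 6 of 10 two-pore subunits (0.27), 3 of 8 calcium-activated subunits (-0.21) and 7 of 14 auxiliary subunits (0.12). Only 38 of the 82 members kept the direction of their fold change in all 6 fits that left out 1 library, 24 of them higher and 14 lower. The groups did not overlap for 6 members, 3 higher in TBI (Kcnt1, Kcnmb1, Kcnh8) and 3 lower (Kcnma1, Kcnj6, Kcng2). That is 7.32% of the members, against 10.2% of all tested genes, of which 4.77% were higher and 5.45% lower. Without TBI1, 10 of 82 members (12.2%) were at an unadjusted p under 0.05, against 4.33% of all genes in that fit. Among them were Kcnt1, Kcna2, Kcnc1, Kcng4 and Kcnab3, higher, and Kcnh3, Kcnj4, Kcna4 and Kcnq1, lower, each with an edgeR adjusted p of 0.906. Without TBI1 the median of all members was 0.04 and that of the voltage-gated subunits -0.18. The calcium-activated median was 0.02 without Sham3, the two-pore median 0.12 without TBI3, and the auxiliary median 0.0059 without TBI3 and -0.053 in DESeq2. The plot of fold changes shows the standard error of each member beside its direction.

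**Figure D3:**
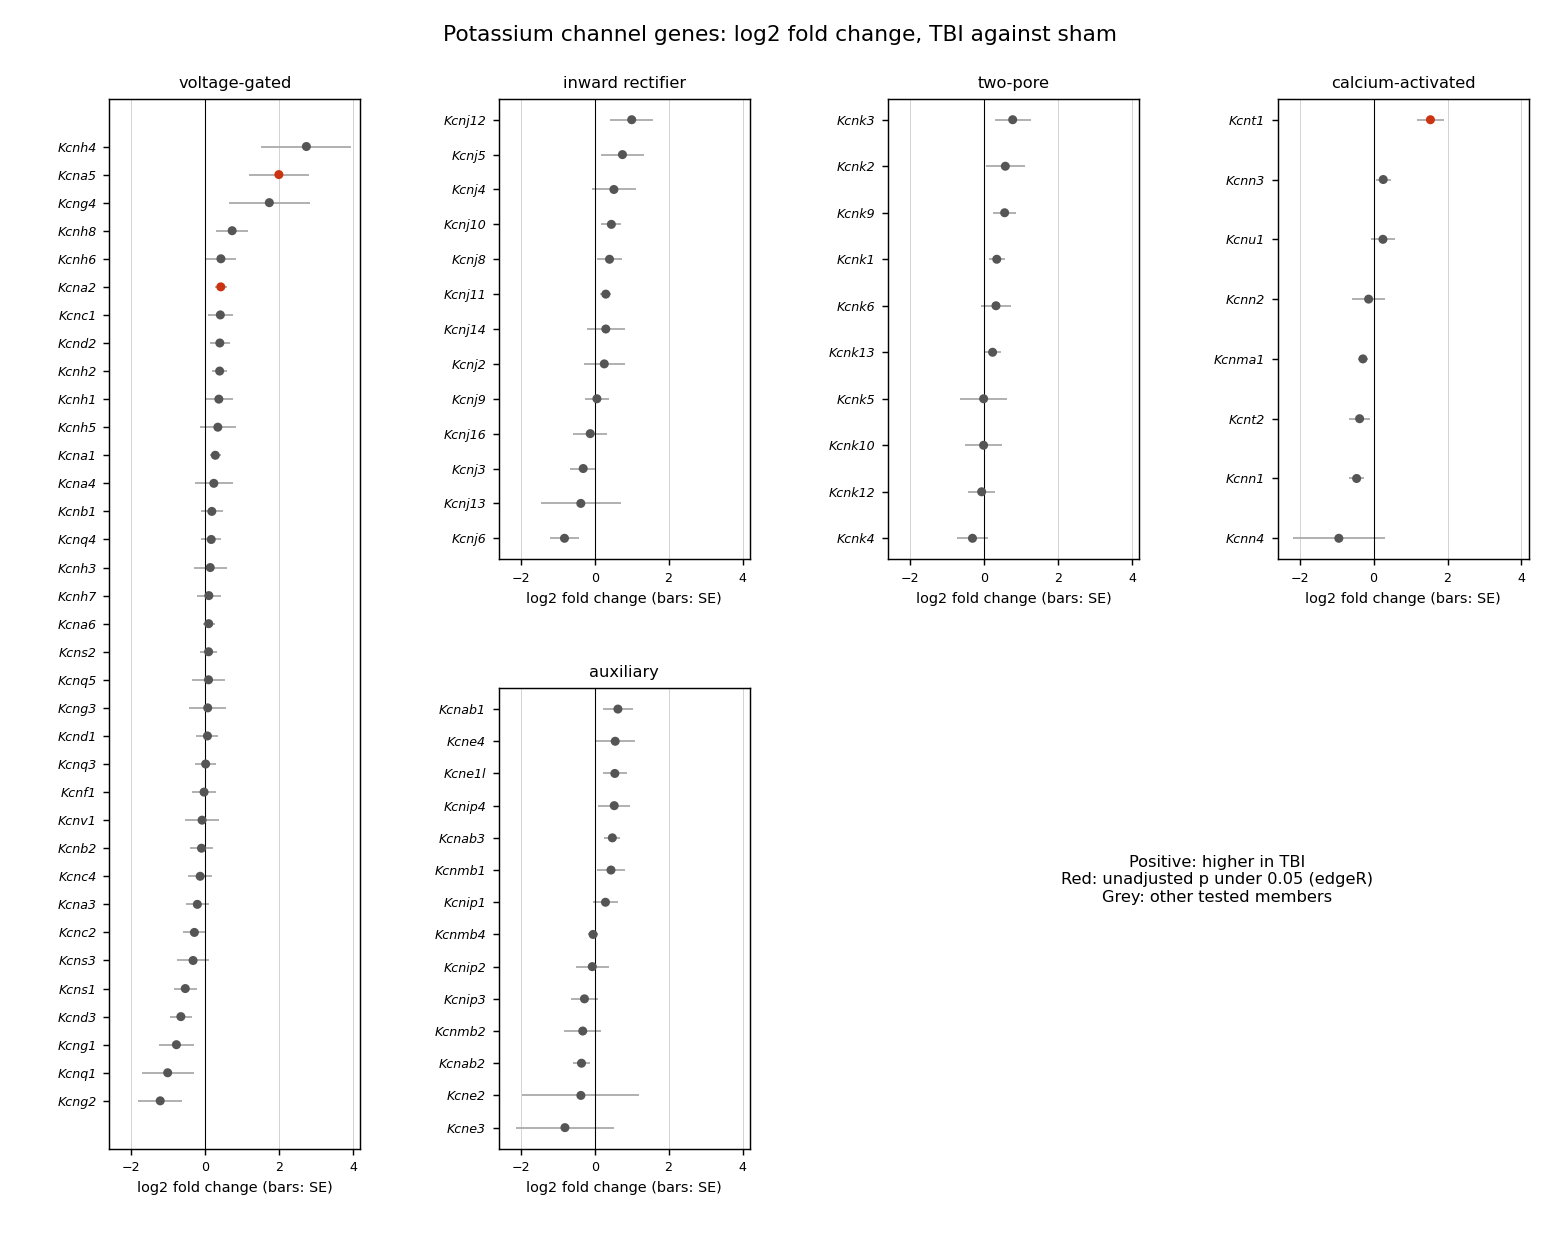
Log2 fold change of 80 of the 82 tested members, TBI against sham, by group, with bars that span the standard error on each side (edgeR, 3 libraries a group). Points to the right of 0 are higher in TBI, and the 3 red points, Kcnt1, Kcna2 and Kcna5, have an unadjusted p under 0.05.

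In the calcium-activated group, Kcnt1 had the smallest p of all members. It encodes Slack, a channel of the Slo family opened by intracellular sodium, and lies on chromosome 2 at 25863734 to 25918273. Kcnt1 was at 17.9, 22.8 and 24.5 CPM in Sham1 to Sham3 and at 96.1, 35.2 and 57.9 CPM in TBI1 to TBI3. Every TBI library was above every sham library, and TBI1, the highest, was also the library with the striatal markers. The log2 fold change of Kcnt1 was 1.54 (SE 0.36), with an adjusted p of 0.982 in edgeR, and an adjusted p of 0.0329 in DESeq2. Without TBI1 it was 1.10 (adjusted p = 0.131 in DESeq2), without TBI2 1.82 and without TBI3 1.60 (adjusted p = 0.126 in DESeq2). Without Sham1 it was 1.43, and over the 6 fits that left out 1 library the adjusted p in DESeq2 ranged from 1.51e-05 (without TBI2) to 0.303 (without Sham1). TBI2 alone, the injured library without the excess of striatal or cerebellar markers, was 0.70 above sham on the log2 scale in edgeR, a setting chosen after seeing the data that takes the lone library to vary as the sham libraries do. The part of the striatal and cerebellar markers in this difference was not tested.

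The other Slo and SK genes had smaller differences. Kcnma1, whose BK channel repolarises the action potential (chromosome 14, 23289431 to 24014491), was at 195, 231 and 222 CPM in sham and 148, 195 and 189 CPM in TBI. Its groups did not overlap by a narrow margin, with TBI1 lowest, and the log2 fold change was -0.29 (SE 0.14), and -0.17 without TBI1. Kcnn1, the small-conductance SK1 of the afterhyperpolarisation, was at 16.2, 20.9 and 20.0 CPM in sham and 10.9, 16.9 and 13.8 in TBI (log2 fold change -0.46, SE 0.21). Kcnn2 was spread over 21.5 to 57.6 CPM in sham and 18.9 to 48.2 in TBI, with a log2 fold change of -0.14 that was 0.15 without TBI1 and 0.32 without Sham3. Kcnn3, the SK3 channel, was at 24.8 to 29.6 and 24.3 to 39.7 CPM, and Kcnt2, the Slack relative Slick, at 11.7 to 15.8 and 7.59 to 14.3. Kcnu1, the sperm Slo3, had at most 3.29 CPM in any library and Kcnn4 at most 1.02.

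Among voltage-gated subunits, Kcna2 moved least between libraries of those at an unadjusted p under 0.05. Kcna2 (chromosome 3, 107101146 to 107115005) encodes Kv1.2 of axons and their initial segments. It was at 199, 202 and 242 CPM in sham and 236, 285 and 339 CPM in TBI. Sham3 was above TBI1, so the groups overlapped, and the other TBI libraries were above every sham library. The log2 fold change was 0.42 (SE 0.16, adjusted p = 0.982, edgeR), and 0.28 to 0.54 with 1 library left out. Its Kv1 neighbour Kcna1, the Kv1.1 subunit, was at 72.3 to 95.9 CPM in sham and 92.5 to 117 in TBI.

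The fold changes of Kcna5 and Kcnh4 rested on 1 injured library. Kcna5, the Kv1.5 subunit, was at 1.48, 2.62 and 3.52 CPM in sham and 22.6, 4.65 and 3.01 CPM in TBI. Its log2 fold change was 1.99 (SE 0.81, adjusted p = 0.982, edgeR) and 0.59 without TBI1. Kcnh4, the Kv12.3 subunit, was chosen after its values were seen. It was at 1.23, 1.74 and 1.64 CPM in sham and 27.9, 1.74 and 1.12 CPM in TBI, so TBI1 was far above the other 5 libraries, which lay close together. The log2 fold change of Kcnh4 was 2.74 (SE 1.22), and -0.11 without TBI1. In TBI1 the 9 striatal markers summed to 4200 CPM against at most 272 in any other library, and their part in these values was not tested.

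The fold changes of Kcnc1 and Kcng4 rested on TBI3. Kcnc1, the Kv3.1 subunit abundant in fast-firing neurons, was at 186, 170 and 220 CPM in sham and 155, 217 and 392 in TBI, with a log2 fold change of 0.41 (SE 0.33), -0.053 without TBI3 and 0.66 without TBI1. Kcnc4, the Kv3.4 subunit, did not share this pattern and was at 64.6 to 91.6 CPM in sham and 40.8 to 99.4 in TBI, lowest in TBI1. Kcng4, the silent modifier subunit Kv6.4, which was chosen after its values were seen, was at 10.96, 2.89 and 19.3 CPM in sham and 4.46, 19.6 and 86.1 CPM in TBI. This gave a log2 fold change of 1.73 (SE 1.09), and 0.11 without TBI3. The cerebellar markers summed to 2068 CPM in TBI3 against at most 54.5 in any other library, and the thalamic sum, 48.0 to 455 CPM over the 6 libraries, was, like Kcng4, low in Sham2 and TBI1 and highest in TBI3. The part of either list in these values was not tested.

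Kcnd3, the A-type subunit Kv4.3, had the smallest p of the voltage-gated subunits lower in TBI. It was at 28.7, 25.2 and 15.9 CPM in sham and 10.8, 14.8 and 18.6 CPM in TBI, so Sham3 lay among the TBI values. The fitted value was a log2 fold change of -0.66 (SE 0.29), and -0.48 to -0.88 with 1 library left out. Kcng2, the silent modifier Kv6.2 chosen after its values were seen, was at 38.1, 18.5 and 29.1 CPM in sham and 3.43, 17.4 and 16.1 in TBI. Its groups did not overlap, the gap between Sham2 and TBI2 was small, and its log2 fold change was -1.22 (SE 0.59), and -0.77 without TBI1. The dentate gyrus sum was likewise highest in Sham1 and lowest in TBI1, with 6 of 6 markers lower in TBI and 4 of 6 lowest in TBI1. The CA3 sum was also highest in Sham1, at 582 CPM, and stood at 286 CPM in TBI1 and in TBI3, with 5 of 5 markers lower in TBI. The part of either list in Kcng2 was not tested. The M-current gene Kcnq3, which restrains repetitive firing, had a log2 fold change of 0.01 (SE 0.28), and -0.28 to 0.22 with 1 library left out. Kcnh8, the Kv12.1 subunit and also chosen after its values were seen, was at 0.50 to 0.54 CPM in sham and 0.59 to 1.12 in TBI, a low level at which the groups did not overlap.

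The inward rectifiers were led by Kcnj10 (chromosome 1, 172341210 to 172374085), the Kir4.1 channel of astrocytes and oligodendrocytes. It was at 276, 158 and 299 CPM in sham and 298, 291 and 413 CPM in TBI, lowest in Sham2, the library with the lowest oligodendrocyte and astrocyte sums, and highest in TBI3, which had the highest astrocyte sum. For Kcnj10 the log2 fold change was 0.45 (SE 0.27), 0.21 without Sham2 and 0.26 without TBI3. The astrocyte markers did not all follow their sum. Of the 6, 3 were highest in TBI3, while Aqp4 was highest in Sham2, at 401 CPM. Gja1 was at 202 CPM in TBI3, below Sham1, Sham3 and TBI2 (323 to 329 CPM). The part of these marker sums in Kcnj10 was not tested. Kcnj4 was at 67.0 to 83.0 CPM in sham and 217, 60.9 and 40.8 CPM in TBI. Its log2 fold change of 0.52 (SE 0.59) became -0.55 without TBI1, since the other TBI libraries lay below every sham library. Kcnj11, the Kir6.2 pore of ATP-sensitive channels, was at 30.6 to 37.7 CPM in sham and 36.0 to 45.9 in TBI (log2 fold change 0.30, SE 0.15).

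The G-protein-gated channels (GIRK), which slow firing through inhibitory receptors, did not share a direction. Kcnj6, the GIRK2 subunit, was at 31.8, 24.5 and 24.3 CPM in sham and 7.10, 21.2 and 17.4 CPM in TBI. Its groups did not overlap and TBI1 was lowest by far, with a log2 fold change of -0.82 (SE 0.39) and -0.48 without TBI1. Kcnj3, the GIRK1 subunit, was at 39.6 to 67.2 CPM in sham and 23.4 to 56.9 in TBI, and 31.1% of its exon bases are shared with a non-coding gene on the opposite strand. Kcnj9, the GIRK3 subunit, was at 78.6 to 142 CPM in sham and 67.0 to 135 in TBI, with a log2 fold change of 0.06 (SE 0.33), 0.32 without TBI1 and -0.12 without Sham2. TBI1 was the lowest of the 6 libraries for Kcnj6, Kcnj3 and Kcnj9. Kcnj5, the GIRK4 subunit, had a low level and was highest in TBI1. It was at 0.44, 0.70 and 1.77 CPM in sham and 2.30, 1.36 and 1.24 CPM in TBI, so the groups overlapped, with a log2 fold change of 0.75 (SE 0.59), 0.42 without TBI1, 0.41 without Sham1 and 1.51 without Sham3. The dentate gyrus and thalamic sums were also lowest in TBI1, at 77.3 and 48.0 CPM. The CA3 sum was 286 CPM in TBI1 and in TBI3, and the striatal sum was 4200 CPM in TBI1. The part of these lists in the GIRK values was not tested.

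Two-pore subunits, the leak channels, had no member at an unadjusted p under 0.05 and none whose groups did not overlap. Kcnk1 (chromosome 8, 125995170 to 126030685) was at 123, 89.6 and 129 CPM in sham and 125, 124 and 185 CPM in TBI, with a log2 fold change of 0.34 (SE 0.22), 0.12 without TBI3 and 0.19 without Sham2. Kcnk2, the mechanosensitive TREK1, was at 35.9 to 64.3 CPM in sham and 142, 53.0 and 34.4 CPM in TBI. Its log2 fold change of 0.57 (SE 0.53) became -0.24 without TBI1 and 0.92 without TBI3, and 12.2% of its exon bases are shared with an antisense gene. Kcnk9, the acid-sensitive TASK3, had the smallest p of the group. It was at 4.10, 7.25 and 4.71 CPM in sham and 6.12, 7.84 and 9.64 in TBI (log2 fold change 0.55, SE 0.30, and 0.38 without TBI3 to 0.83 without Sham2). Kcnk3, the acid-sensitive TASK1, chosen after its values were seen, was at 17.8 to 21.8 CPM in sham, 18.3 and 19.4 in TBI1 and TBI2, and 63.0 in TBI3, so that its log2 fold change of 0.77 (SE 0.49) was -0.07 without TBI3. Kcnk12, the THIK2 subunit, was at 15.7 to 16.4 CPM in sham and 8.40 to 23.6 in TBI, and its log2 fold change of -0.07 was 0.23 without TBI1 and -0.54 without TBI3. Kcnk4, the mechanosensitive TRAAK, was at 4.34 to 8.0 CPM in sham and 3.53 to 8.44 in TBI. Its log2 fold change was -0.32 (SE 0.42), -0.09 without TBI1 and -0.82 without TBI2. Of its exon bases, 13.1% are shared with Catsperz on the same strand, so its counts are uncertain.

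Auxiliary subunits included the most abundant transcript and the most divided one. Kcnab2 was at 1018, 631 and 792 CPM in sham and 476, 786 and 643 CPM in TBI, with a log2 fold change of -0.36 (SE 0.24) and values that overlapped. The fitted value was -0.16 without Sham1, -0.19 without TBI1, and -0.05 for TBI2 alone against sham. Kcnab3, the Kvβ3 subunit, was at 29.0, 28.4 and 42.6 CPM in sham and 38.3, 46.1 and 54.7 CPM in TBI. Its log2 fold change was 0.48 (SE 0.22), and it had the smallest p of the group. Kcnab1, chosen after its values were seen and encoding the Kvβ1 subunit that gives Kv1 channels fast inactivation, was at 101 to 146 CPM in sham and 332, 118 and 148 CPM in TBI, and its log2 fold change of 0.63 (SE 0.40) was 0.04 without TBI1. Kcnip3, known as DREAM, was at 119, 302 and 140 CPM in sham and 135 to 179 in TBI, and its log2 fold change of -0.28 (SE 0.35) became 0.25 without Sham2. Kcnip2 was at 72.1 to 137 CPM in sham and 50.1 to 166 in TBI. Kcnmb4, the neuronal β4 subunit of BK channels, had the smallest SE of the auxiliary subunits, at 62.8 to 78.6 CPM in sham and 63.0 to 72.8 in TBI (log2 fold change -0.04, SE 0.13, and -0.12 to 0.05 with 1 library left out). Of its exon bases, 20.8% are shared with 1 antisense gene and 10.7% with another. Kcnmb1, the β1 subunit of smooth muscle BK channels, had groups that did not overlap, at 0.57 to 0.68 CPM in sham and 0.73 to 0.92 in TBI.

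**Figure D4:**
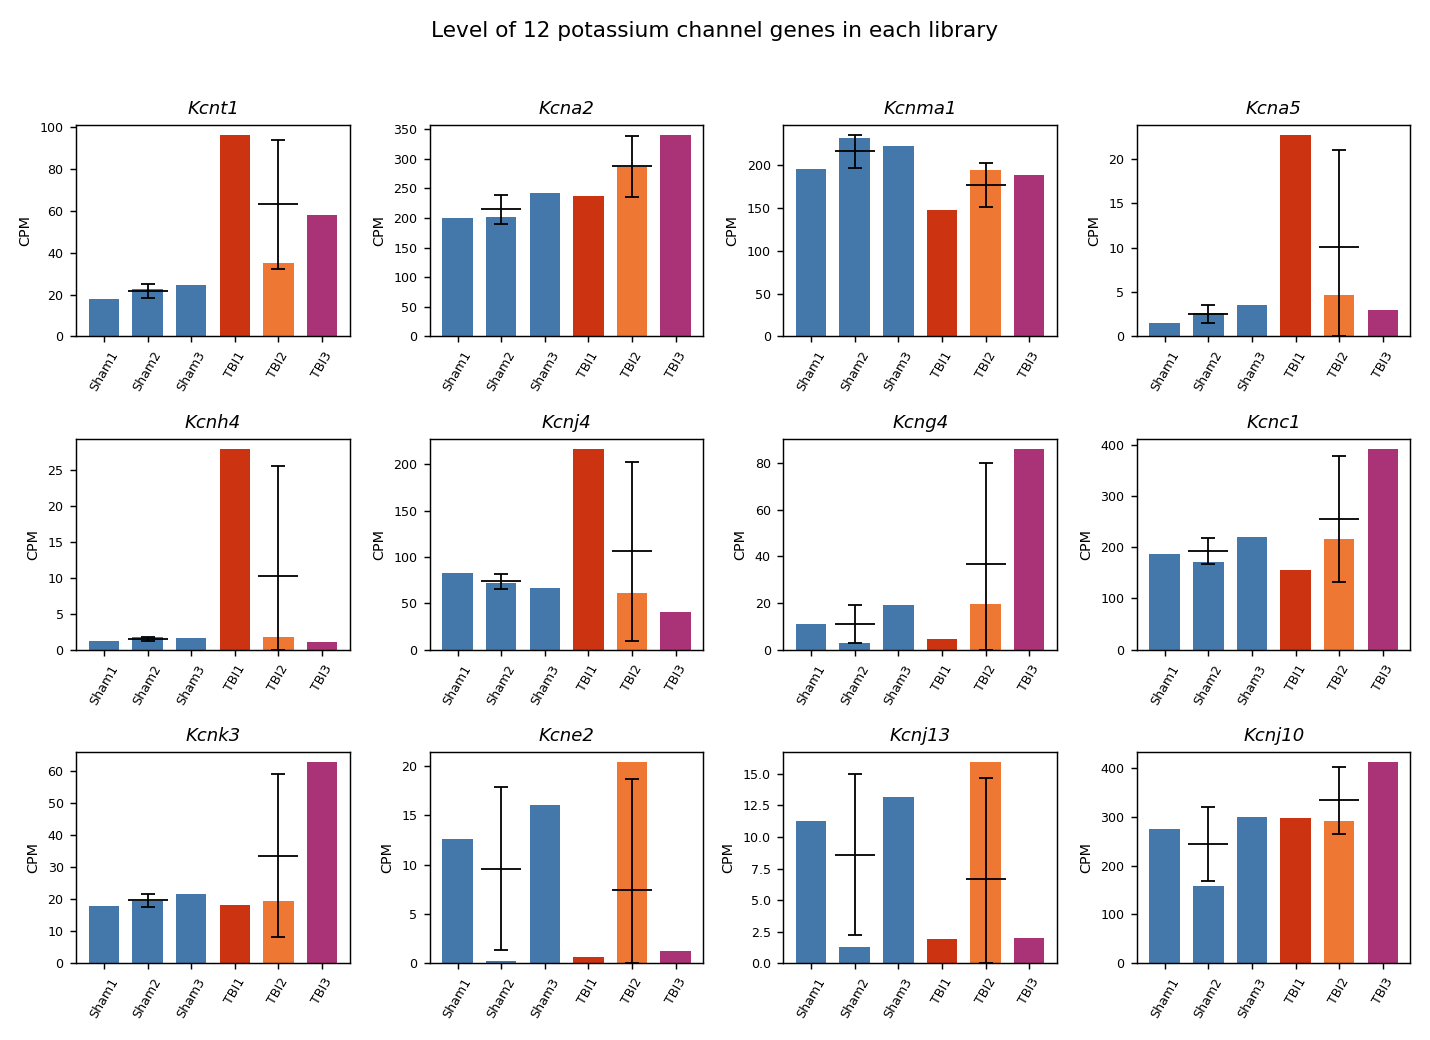
CPM of 12 members in each library (sham in blue, TBI1 red, TBI2 orange, TBI3 purple; black marks are group means with bars of SD, n = 3 each, ended at 0 where they would go below it). Only Kcnt1 and Kcnma1 of these have groups that do not overlap. TBI1 is far above the rest for Kcna5, Kcnh4 and Kcnj4, TBI3 for Kcng4, Kcnc1 and Kcnk3, and Kcne2 and Kcnj13 are high in Sham1, Sham3 and TBI2.

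Kcne2 and Kcnj13 were split within both groups, and both were chosen after their values were seen. Kcne2 (chromosome 16, 92292389 to 92298129), a small subunit of KCNQ and other channels, was at 12.6, 0.22 and 15.99 CPM in sham and 0.61, 20.4 and 1.24 CPM in TBI. Kcnj13 (chromosome 1, 87386363 to 87394729), the epithelial rectifier Kir7.1, was at 11.3, 1.30 and 13.2 CPM in sham and 1.91, 15.96 and 2.02 CPM in TBI. Both were high in Sham1, Sham3 and TBI2, the 3 libraries with 2023 to 2350 CPM of choroid plexus markers, and low in the 3 with 53.1 to 259 CPM. The part of these markers in the 2 genes was not tested. Their log2 fold changes were -0.37 (SE 1.58) and -0.38 (SE 1.08), without TBI2 -3.39 and -2.13, and without TBI1 0.17 and 0.06. Of the exon bases of Kcnj13, 49.1% are shared with Gigyf2 on the opposite strand, and the strandedness of the libraries is not given in the sources used here.

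RefSeq promoter windows (GRCm38.p6, 250 bases before to 50 after the start) were at hand for 68 of the 93 members, 93 windows in all, with a median of 9 CpG dinucleotides against 7 over 32851 windows. The letters TATAAA were searched on both strands and stood in 5 of the 93 windows (5.38%), against 13.6% of all windows. The letters TAATCC, the core that OTX2 of the choroid plexus binds, stood in 2.15% against 7.06%. Kcnt1 had no window. The windows of 2 pairs that moved together by library are shown, Kcne2 and Kcnj13, high in Sham1, Sham3 and TBI2, and Kcna5 and Kcnh4, high in TBI1. Capitals mark TATAAA, which was found only in Kcnj13, 29 bases before its start. TAATCC was found in none of the 4. They held 9, 5, 4 and 23 CpG. A match is a description of these letters, not of a bound site.
Kcne2 (the more upstream of its starts), chr16:92292139-92292438, plus strand: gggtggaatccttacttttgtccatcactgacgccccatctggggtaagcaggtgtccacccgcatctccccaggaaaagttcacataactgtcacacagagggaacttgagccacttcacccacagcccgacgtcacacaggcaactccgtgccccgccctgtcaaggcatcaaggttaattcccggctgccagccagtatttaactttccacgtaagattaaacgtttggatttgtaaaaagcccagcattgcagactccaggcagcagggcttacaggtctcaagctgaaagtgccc
Kcnj13, chr1:87394680-87394979, minus strand: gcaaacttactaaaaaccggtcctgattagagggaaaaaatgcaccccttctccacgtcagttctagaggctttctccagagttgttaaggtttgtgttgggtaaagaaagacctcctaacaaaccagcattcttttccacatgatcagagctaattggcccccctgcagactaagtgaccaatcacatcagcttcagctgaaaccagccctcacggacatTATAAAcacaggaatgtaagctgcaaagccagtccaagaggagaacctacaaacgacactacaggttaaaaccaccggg
Kcna5, chr6:126535506-126535805, minus strand: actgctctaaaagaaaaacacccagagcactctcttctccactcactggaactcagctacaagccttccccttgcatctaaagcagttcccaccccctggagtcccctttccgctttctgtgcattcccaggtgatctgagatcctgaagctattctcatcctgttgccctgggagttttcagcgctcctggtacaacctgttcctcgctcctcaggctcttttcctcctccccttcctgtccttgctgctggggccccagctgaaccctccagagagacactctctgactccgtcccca
Kcnh4, chr11:100759729-100760028, minus strand: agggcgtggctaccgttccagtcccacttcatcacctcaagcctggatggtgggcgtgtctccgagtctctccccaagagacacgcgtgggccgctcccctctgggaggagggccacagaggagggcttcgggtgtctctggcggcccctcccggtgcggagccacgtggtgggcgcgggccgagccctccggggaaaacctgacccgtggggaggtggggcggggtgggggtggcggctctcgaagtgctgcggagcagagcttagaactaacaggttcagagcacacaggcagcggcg

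TBI1 and TBI3 held the most members far from the other libraries. In TBI1, 14 members were more than 2-fold above the median of the other 5 libraries and 12 more than 2-fold below, which is 17.1% and 14.6% of the members against 4.14% and 4.23% of all tested genes (on CPM + 0.5). In TBI3 it was 9 above and 7 below, 10.98% and 8.54% against 2.96% and 2.52% of all genes. Sham1 had 3 above and 4 below (3.66% and 4.88%, against 1.04% and 2.46% of all genes). Sham2 had 3 above and 5 below (3.66% and 6.10%, against 4.77% and 5.05%). TBI2 and Sham3 each had 2 above (2.44%), Kcne2 and Kcnj13, and 0 below, where all genes were at 1.82% and 0.83% in TBI2 and at 1.03% and 1.13% in Sham3. Above in TBI1 were 8 voltage-gated subunits, 2 inward rectifiers, 2 two-pore subunits, Kcnt1 and Kcnab1. TBI1 and TBI3 are the libraries with the striatal and the cerebellar markers, whose part in these counts was not tested. Kcnt1 was the only member more than 2-fold above the median of the other libraries in both TBI1 and TBI3. TBI1 held the highest level of 28 of the 82 members (34.1%, against 19.7% of all genes) and TBI3 of 20 (24.4%, against 19.8%). TBI3 held the lowest level of 25 (30.5%, against 18.0%) and TBI1 of 21 (25.6%, against 20.6%). Members are not independent of each other, and these shares describe the 6 libraries without a test. In sham the median coefficient of variation of the members was 22.8%, against 19.2% for all tested genes, lowest for the calcium-activated subunits at 15.5% and highest for the inward rectifiers at 30.7%.

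**Figure D5:**
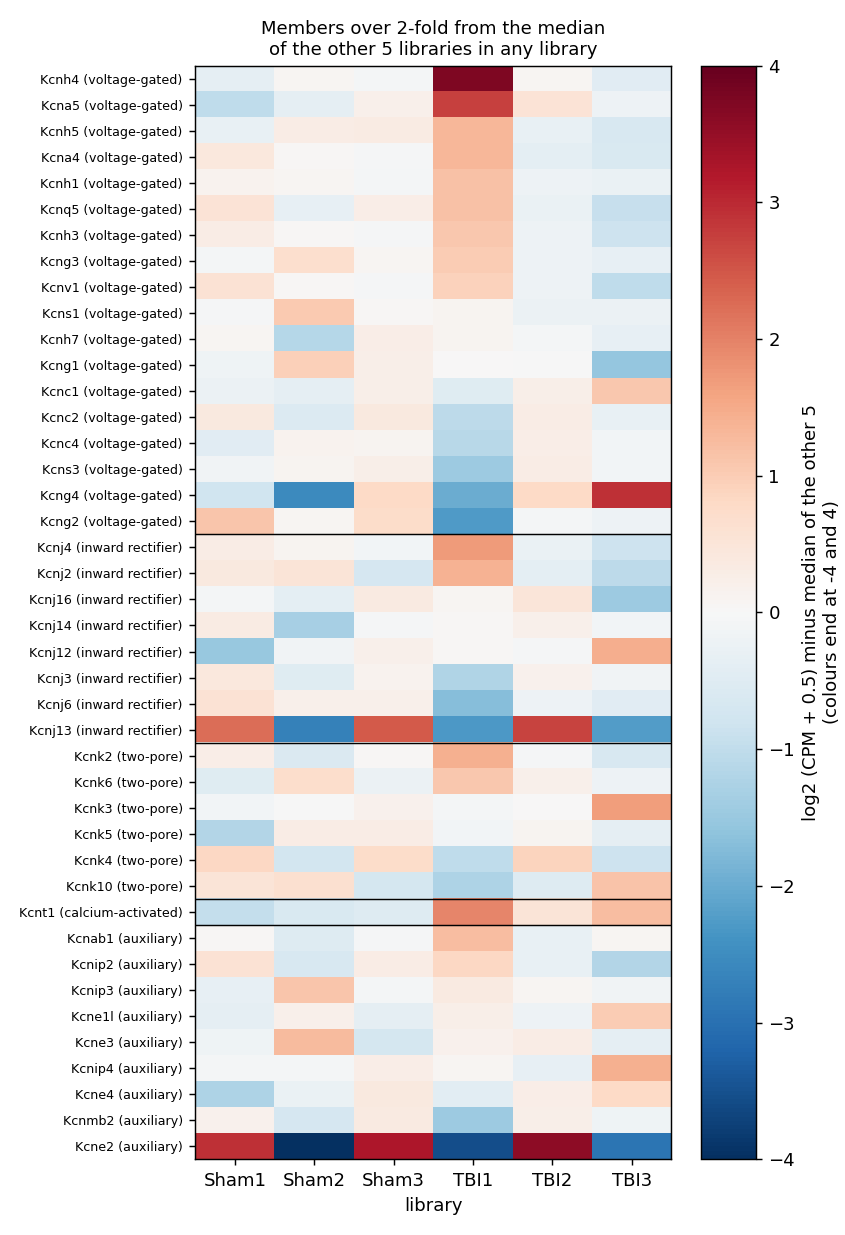
Log2 (CPM + 0.5) in each library minus the median of the other 5, for 42 members more than 2-fold from it in at least 1 library, by group (red above, blue below, colours end at -4 and 4). TBI1 and TBI3 hold most of the strong colours (14 above and 12 below in TBI1 over all tested members), and Kcne2 and Kcnj13 alternate across both groups.

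Genes that work with these channels were counted from lists of known partners. Of 28 channel partners (scaffolds, calmodulins and associated subunits) 27 were tested, 16 higher and 11 lower, with a median log2 fold change of 0.07. Lingo1, a neuronal surface protein that associates with BK channels, was the 1 of 27 at an unadjusted p under 0.05 (3.70%, against 4.29% of all tested genes). It was at 228, 344 and 226 CPM in sham and 186, 192 and 133 CPM in TBI, without overlap (log2 fold change -0.64, SE 0.22, adjusted p = 0.982, edgeR, and -0.42 without Sham2). Among the leading partners per length were Calm2 and Calm3, calmodulin genes, whose protein is the calcium sensor of SK and KCNQ channels. Their log2 fold changes were 0.02 (SE 0.14) and -0.20 (SE 0.17), and with 1 library left out -0.09 to 0.14 and -0.33 to -0.06. Of 13 tested genes of potassium clearance, 8 were higher and 5 lower, 0 at an unadjusted p under 0.05 in edgeR. For 5 of these 13 (38.5%) the groups did not overlap, subunits of the Na+/K+ pump among them, and for 2 of the 27 channel partners (7.41%), against 10.2% of all tested genes. Of the 5 clearance genes, the glial subunit Atp1b2 was at 372, 412 and 424 CPM in sham and 452, 462 and 656 in TBI (log2 fold change 0.38, SE 0.17, and 0.18 without TBI3). Atp1b1 was at 1946, 1929 and 2041 CPM in sham and 1366, 1858 and 1789 in TBI (-0.24, SE 0.14, and -0.11 without TBI1), and Atp1b3 differed by 0.15 (SE 0.095). The astrocyte sum ranged over 1786 to 2493 CPM in sham and 2048 to 3115 in TBI and the neuronal sum over 4313 to 4537 and 3750 to 4104, and their part in these values was not tested.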

How the data were processed

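Reads of 6 hippocampal libraries, 3 sham and 3 TBI, were checked by the authors (FastQC), aligned to GRCm38 (HISAT2) and quantified (StringTie). The deposited files hold estimated counts for each gene, whole and not normalized. The annotation and strandedness are not given in the sources used here. Low values pile up at multiples of 4 (the value 4 occurs 5109 times and 3 occurs 2325 times), so the values are not tallies of reads and give no counting error.

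Of 52550 gene identifiers, 52403 were matched to GENCODE vM21 symbols. Genes were kept by filterByExpr, scaled by TMM and tested with edgeR 4.0.16 (quasi-likelihood, Benjamini-Hochberg adjustment over 18795 genes; limma 3.58.1, R 4.3.3). DESeq2 1.42.0, other scalings and filters, counts divided by 4, each library left out and a replicate block were alternatives. Exact permutation of 3 against 3 libraries cannot give a p below 0.1. Standard errors came from the F statistic. CPM per kb used union exon length.

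Named members were, by group, the 3 highest per length, the smallest p in each direction, and any with an unadjusted p under 0.05 in edgeR or an adjusted p under 0.1 in DESeq2. Partner genes were named at a p under 0.05 or among the 3 highest per length of a list. Some genes under these rules are not reported here. Other genes were named after their values were seen. Members and lists were chosen with earlier results of these data known. Marker lists covered the regions and cell types named with the libraries.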

Additional observations from a re-analysis of the deposited data

How the results depend on the processing

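Scaling by library totals or upper quartiles and dividing counts by 4 kept counts of members within 1.5 times and medians within the pooled SD of the library medians. With counts divided by 4, members without overlap went from 6 to 4 (5.19%, against 10.4% of all genes) and the calcium-activated median from -0.21 to -0.13. DESeq2 with its defaults called 46 genes and 1 member, had 6 members at an unadjusted p under 0.05 and an auxiliary median of -0.053. On the genes of the edgeR filter it called 43 genes (0.23%) and 1 member and had 6 at an unadjusted p under 0.05 (7.41%, against 5.74% of all genes). The auxiliary median was -0.048 with at least 1 count in any library and 0.37 with at least 10 counts in every library, filters that change which auxiliary genes are tested.

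With each library left out in turn, genes called ranged from 0 to 1. Members at an unadjusted p under 0.05 in edgeR ranged from 1 without Sham1 (1.2%, against 2.49% of all genes) to 10 without TBI1 (12.2%, against 4.33%). The share of all genes ranged from 2.49% without Sham1 to 5.82% without TBI2. Members without overlap numbered 10 (without Sham1) to 20 (without TBI1), where 17.5% to 22.7% of all genes also did not overlap. Medians ranged from -0.18 (without TBI1) to 0.24 for voltage-gated, 0.12 to 0.40 for two-pore, -0.27 to 0.024 for calcium-activated and 0.0059 to 0.31 for auxiliary subunits. Directions turned, with ranges over the 6 fits, for Kcnc1 (-0.053 to 0.66) without TBI3, for Kcnc4 (-0.41 to 0.16), Kcnj4 (-0.55 to 0.91), Kcnk2 (-0.24 to 0.92) and Kcnk12 (-0.54 to 0.23) without TBI1, and for Kcnip3 (-0.51 to 0.25) without Sham2. They also turned for Kcnn2 (-0.50 to 0.32) without TBI1 or Sham3, Kcnj9 (-0.12 to 0.32) without Sham2, TBI2 or TBI3, and Kcnip2 (-0.59 to 0.26) without Sham1, TBI2 or TBI3. DESeq2 with a library left out, chosen after seeing the data, called 0 to 2 members beside 0.126% to 1.16% of all genes. The 2 were Kcnt1 and Kcnh4 without TBI2, where Kcnh4 was 27.9 CPM in TBI1 and 1.12 in TBI3. DESeq2 gave Kcnh4 no p with all 6 libraries, and its log2 fold change was -0.12 without TBI1. The values of partner genes with a library left out were also added after seeing the data.

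TBI2 alone against sham, also chosen after seeing the data, gave 1 gene called, 1 member at an unadjusted p under 0.05 (1.19%, against 1.7% of all genes), and medians of 0.040 for two-pore, -0.024 for calcium-activated and -0.023 for auxiliary subunits. Kcnc4 (0.28), Kcnj4 (-0.29) and Kcnk4 (0.34) turned. The cause of these changes was not tested. Of 351 alternative values of the 23 named members, 334 kept their direction, and 13 members kept it in every alternative. Many of these alternatives keep the same 6 libraries and change only the scaling, filter or tool, so this share does not measure robustness. With each library left out, 38 of the 82 tested members kept their direction.

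Sham and TBI libraries share replicate numbers. The correlations of deviations from the group means between same-numbered libraries were -0.13, -0.068 and 0.20, and Sham1 correlated best with TBI3 and Sham2 with TBI1. Not every same-numbered pair was above 0.1, so the numbers were not taken to pair mice. With the replicate block 7 members were at an unadjusted p under 0.05 (8.54%, against 3.85% of all genes) and no member was called. The median was then 0.24 for auxiliary subunits, 0.13 for inward rectifiers and 0.02 for voltage-gated subunits.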
